A study of Mus musculus with 8 samples.

Results

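A panel of 34 genes that mark blood and lymphatic endothelial cells, the selectins Selp and Sele among them, was followed through 4 sorted populations of mouse mammary basal cells. The panel is a list of mouse gene symbols, matched to Entrez identifiers, and all 34 genes were found among the 27164 genes of the count tables. Basal cells are the outer, contractile layer of the mammary epithelium, and they were sorted by 2 surface or reporter markers. T8 stands for Tspan8, a tetraspanin of the cell surface, and Lgr5 is an R-spondin receptor that marks stem cells in several epithelia. Cells with high Tspan8 were divided into Lgr5+T8hi and Lgr5-T8hi, and cells without it into Lgr5+T8- and Lgr5-T8-. Each population has 2 libraries, 1 from each of the batches 1 and 2 that the labels record. Every library came from untreated C57BL/6 female mice aged 10 weeks that carried the Lgr5-GFP-IRES-CreERT2 allele, in which the Lgr5 locus drives the reporter, and mice without the allele were not part of the design. The labels give neither the number of mice behind a library nor whether batches used different animals. The p-values then reflect only how far these libraries spread, and that spread may be technical. The labels name no gate against endothelial cells, whose surface protein CD31 (the product of Pecam1) is commonly used for that purpose in mammary sorting.

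Endothelial cells form the inner lining of vessels and hold together through VE-cadherin (Cdh5) and CD31. They respond to vascular endothelial growth factors through the receptor tyrosine kinases encoded by Kdr, Flt1 and Flt4, and to angiopoietins through Tek with its partner Tie1. In postcapillary venules P-selectin (Selp) is stored with von Willebrand factor (Vwf) and released to the surface, and E-selectin (Sele) is made on inflammatory stimulation, and both let leukocytes roll on the vessel wall. Lymphatic endothelium shares much of this set and is told apart by Prox1, Lyve1 and Flt4. ETS factors such as Erg and Fli1, and the SoxF factors Sox7, Sox17 and Sox18, drive many endothelial promoters.

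RefSeq (GRCm38.p6) lists a promoter window, 250 bases before to 50 bases after a transcript start, for 18 of the 34 genes. The windows of the selectin group, of 1 junctional and surface gene with the common pattern described further on (Emcn), and of 2 lymphatic genes that departed from it are printed because the values turn on these genes. Capitals mark the ETS core AGGAAG or its reverse complement CTTCCT, and lines run from 5′ to 3′ on the gene's strand.
Selp, chr1:164115014-164115313, plus strand: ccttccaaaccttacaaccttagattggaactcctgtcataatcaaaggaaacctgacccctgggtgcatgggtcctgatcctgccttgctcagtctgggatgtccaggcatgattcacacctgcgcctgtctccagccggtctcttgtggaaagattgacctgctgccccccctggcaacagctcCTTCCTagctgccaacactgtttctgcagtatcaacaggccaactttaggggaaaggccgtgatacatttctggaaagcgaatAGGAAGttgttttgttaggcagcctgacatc
Sele, chr1:164047984-164048283, plus strand: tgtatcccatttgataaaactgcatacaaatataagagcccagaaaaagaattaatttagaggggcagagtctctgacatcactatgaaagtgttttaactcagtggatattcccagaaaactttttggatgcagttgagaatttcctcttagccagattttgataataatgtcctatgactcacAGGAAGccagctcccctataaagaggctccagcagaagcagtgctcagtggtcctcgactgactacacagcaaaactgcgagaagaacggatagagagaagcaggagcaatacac
Ackr1, chr1:173333454-173333753, minus strand: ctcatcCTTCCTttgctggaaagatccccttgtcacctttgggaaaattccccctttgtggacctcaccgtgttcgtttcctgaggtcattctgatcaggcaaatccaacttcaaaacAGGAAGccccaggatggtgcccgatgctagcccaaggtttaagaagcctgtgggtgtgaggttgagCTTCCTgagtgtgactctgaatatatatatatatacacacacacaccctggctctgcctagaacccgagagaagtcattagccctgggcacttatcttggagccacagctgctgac
Emcn, chr3:137340828-137341127, plus strand: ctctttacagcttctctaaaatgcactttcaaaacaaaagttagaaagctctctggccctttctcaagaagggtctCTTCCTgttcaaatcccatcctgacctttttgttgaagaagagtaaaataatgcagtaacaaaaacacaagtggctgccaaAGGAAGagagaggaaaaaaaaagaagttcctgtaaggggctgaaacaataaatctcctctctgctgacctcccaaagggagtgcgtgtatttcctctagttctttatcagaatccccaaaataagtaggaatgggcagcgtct
Mmrn1, chr6:60944067-60944366, plus strand: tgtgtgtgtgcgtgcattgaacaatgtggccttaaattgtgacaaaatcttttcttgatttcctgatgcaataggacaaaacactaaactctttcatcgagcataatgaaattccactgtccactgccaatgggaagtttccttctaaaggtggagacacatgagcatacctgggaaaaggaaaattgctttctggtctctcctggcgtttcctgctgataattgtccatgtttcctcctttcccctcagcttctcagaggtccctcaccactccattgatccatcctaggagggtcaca
Flt4, chr11:49609429-49609728, plus strand: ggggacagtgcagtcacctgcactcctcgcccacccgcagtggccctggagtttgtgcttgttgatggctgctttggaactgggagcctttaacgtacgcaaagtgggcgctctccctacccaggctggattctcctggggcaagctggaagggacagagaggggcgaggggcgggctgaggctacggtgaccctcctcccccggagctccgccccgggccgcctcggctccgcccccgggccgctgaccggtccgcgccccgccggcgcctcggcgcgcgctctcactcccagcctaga
The Selp window held 2 such cores and the Sele window 1. Ackr1 held 3 and Emcn 2, while the Mmrn1 and Flt4 windows held none. The windows of Kdr, Tek, Clec14a, Tal1 and Prox1, which had the common pattern, also held none, and Lyve1 had no window. Over both strands, 12 of the 24 windows of these genes held the core, against 35.4% of all 32851 windows. A SOX core, AACAAT on either strand, was found in 4 of the 24 windows (16.7%) and in 10.7% of all windows, and a GATA core, AGATAA, in 4 (16.7%) and 11.2%. The NF-kB consensus was matched in 3 of the 24 windows (12.5%), those of Flt1, Kdr and Tal1, and in 4.51% of all windows. These are letters in a window, not binding sites.

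Library totals ran from 24571300 to 38384875 reads, so that 3 counts corresponded to 0.0782 to 0.122 CPM (counts scaled to a common library size), and none of the 34 genes was at 0 in any library. CPM values below use TMM-adjusted library sizes. The sort markers followed their labels: Tspan8 averaged 275 ± 19.5 CPM in Lgr5+T8hi libraries, 159 ± 11.7 CPM in Lgr5-T8hi, 8.70 ± 2.66 CPM in Lgr5+T8- and 3.76 ± 0.85 CPM in Lgr5-T8- (SD, n = 2 each). Lgr5 averaged 184 ± 13.5, 124 ± 6.62, 199 ± 19.4 and 54.4 ± 5.55 CPM in the same order, so the Lgr5- sorts still held Lgr5 transcript. Basal identity was clear in every library, with Krt5 at 2106 to 2753 CPM and 10 basal markers summing to 16518 to 25041 CPM. The 34 endothelial genes together summed to 332 to 1603 CPM.

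The endothelial genes moved together and were highest in the Lgr5+T8hi population. Their summed level was 1603 and 1559 CPM in the Lgr5+T8hi libraries, 496 and 924 CPM in Lgr5-T8hi, 463 and 332 CPM in Lgr5+T8- and 562 and 582 CPM in Lgr5-T8-, batch 1 before batch 2 here and throughout. Both Lgr5+T8hi sums lie above all others, the 2 Lgr5-T8hi libraries stand well apart from each other, and both Lgr5+T8- sums are the lowest. Lgr5+T8hi had the highest mean for 31 of the 34 genes, and Lgr5+T8- the lowest mean for 29. Flt4, Lyve1 and Mmrn1 departed, all highest in Lgr5-T8- and all lymphatic genes. Both Lgr5-T8- libraries lay above the other 6 for Mmrn1 and Lyve1, and for 7.09% of all genes tested. For 27 genes both Lgr5+T8hi libraries lay above the other 6, against 8.52% of all genes tested, and for 15 both Lgr5+T8- libraries lay below the other 6, against 5.52%. In batch 1 alone 29 genes were highest in Lgr5+T8hi, with Fli1 and Prox1 joining the departures, and in batch 2 alone 31. In sorted bulk RNA, fewer cells of a type and less RNA per cell cannot be told apart.

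**Figure D1:**
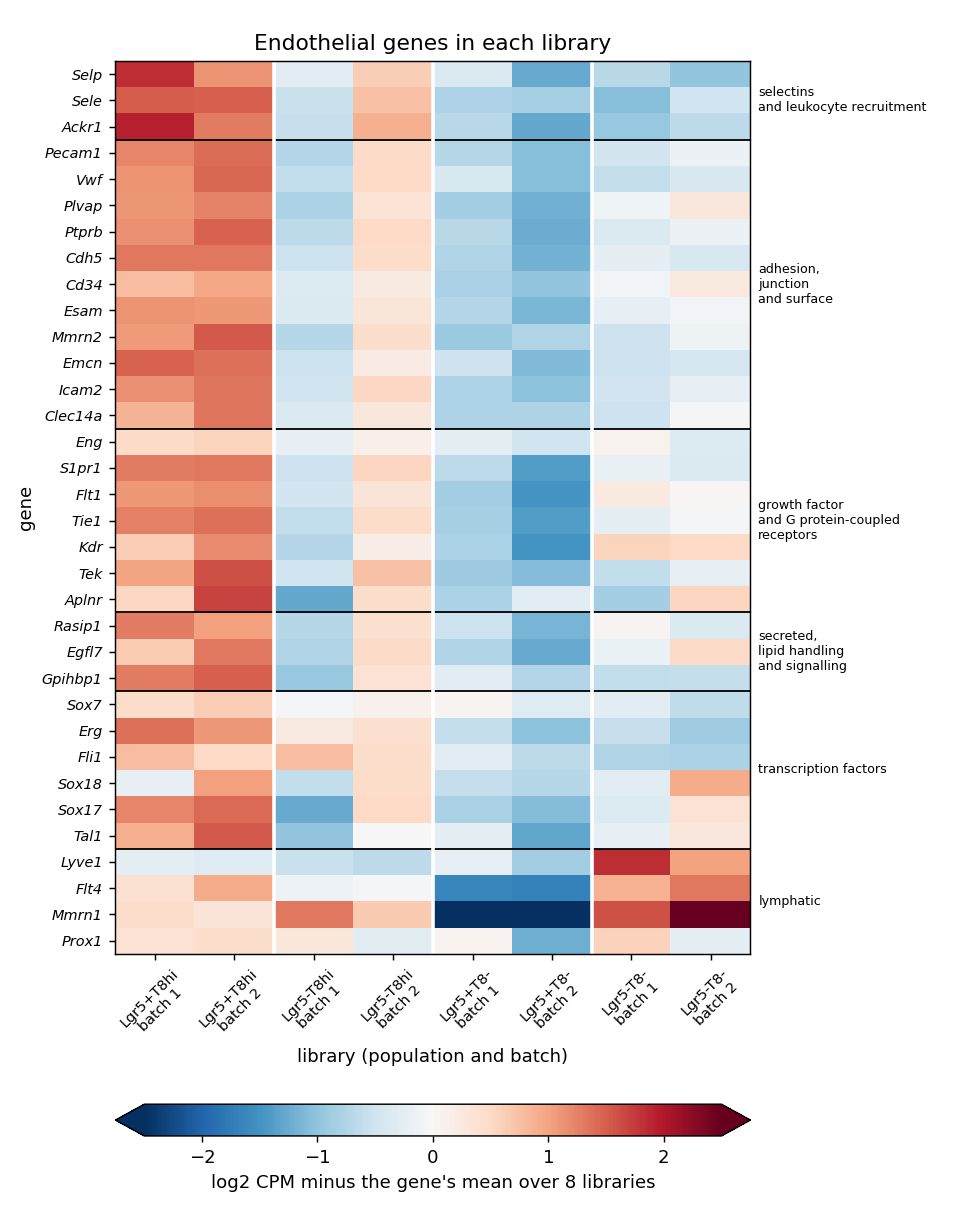
Level of each of the 34 endothelial genes (rows, grouped by role) in each of the 8 libraries (columns), as log2 CPM minus the gene's mean over the 8 libraries; colours stop at 2.5 in either direction. The first 2 columns, Lgr5+T8hi, are red for nearly all rows, both Lgr5+T8- columns are mostly blue, and Lyve1, Flt4 and Mmrn1 at the bottom are reddest in Lgr5-T8-.

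The batches differed in how they placed Lgr5-T8hi. The median ratio of batch 2 over batch 1 across the 34 genes was 1.11 in Lgr5+T8hi and 2.02 in Lgr5-T8hi, while it was 0.743 in Lgr5+T8- and 1.16 in Lgr5-T8-. In Lgr5-T8hi 30 of the 34 genes were higher in batch 2, and in Lgr5+T8- only 2 were. For most of the 34 genes, a value that involves the Lgr5-T8hi population therefore rests on 2 libraries that stand apart. The libraries were closer for Lyve1, Flt4, Sox7 and Erg, with ratios of 0.943, 1.06, 1.10 and 1.12. The batch term itself, batch 2 over batch 1 averaged over populations, was called for 5 of the 34 genes, against 32.9% of all genes tested. That count was 1 and 2 without Lgr5+T8hi batch 1 and batch 2, 9 without either Lgr5+T8- library and 3 without either Lgr5-T8- library. Aplnr had 6.05 CPM in batch 2 against 2.65 in batch 1 for Lgr5+T8hi, 2.53 against 0.77 for Lgr5-T8hi, 1.55 against 1.07 for Lgr5+T8-, and 2.72 against 1.03 for Lgr5-T8- (log2 fold change 1.23 ± 0.20, edgeR adjusted p = 0.000951). Sox18, Mmrn2 and Clec14a were also higher in batch 2, by 0.91 ± 0.21, 0.57 ± 0.15 and 0.43 ± 0.15 on the log2 scale, and Lyve1 was lower, by -0.44 ± 0.14. Of these, the Aplnr call held when each library was left out in turn; the Sox18 call was lost without either Lgr5+T8hi library (highest adjusted p 0.0547), and those of Mmrn2, Clec14a and Lyve1 without 4, 5 and 5 of the libraries (highest adjusted p 0.0893, 0.216 and 0.289).

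Within Lgr5+ cells, T8hi against T8- gave the clearest endothelial difference. Of the 34 genes, 26 were higher in Lgr5+T8hi than in Lgr5+T8- and none lower, while 9.44% of all genes tested were called, 7.27% higher and 2.17% lower. The median log2 fold change was 2.06 over the 34 genes and -0.05 over all genes tested. By DESeq2 the count was 32. It fell to 13 of 34 without either Lgr5+T8hi library, and to 16 without Lgr5+T8- batch 2 or Lgr5-T8- batch 1. Within Lgr5- cells the same contrast called 4 genes, Fli1 and Erg higher and Lyve1 and Flt4 lower, against 7.06% of all genes (3.70% higher, 3.36% lower), and the median was 0.17. That count was 12 without Lgr5-T8hi batch 1 and 2 with no batch term. The difference between both contrasts, tested as the interaction, was called for 11 genes, all in the positive direction, against 2.55% of all genes (2.18% in that direction and 0.363% in the other), and its median was 1.88. The interaction count was 3 without either Lgr5+T8hi library, 6 without either Lgr5-T8- library, 19 without Lgr5+T8- batch 1 and 29 without Lgr5-T8hi batch 2. Without the batch term edgeR called none of the 34 genes in the interaction, although 28 had an unadjusted p under 0.05.

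**Figure D2:**
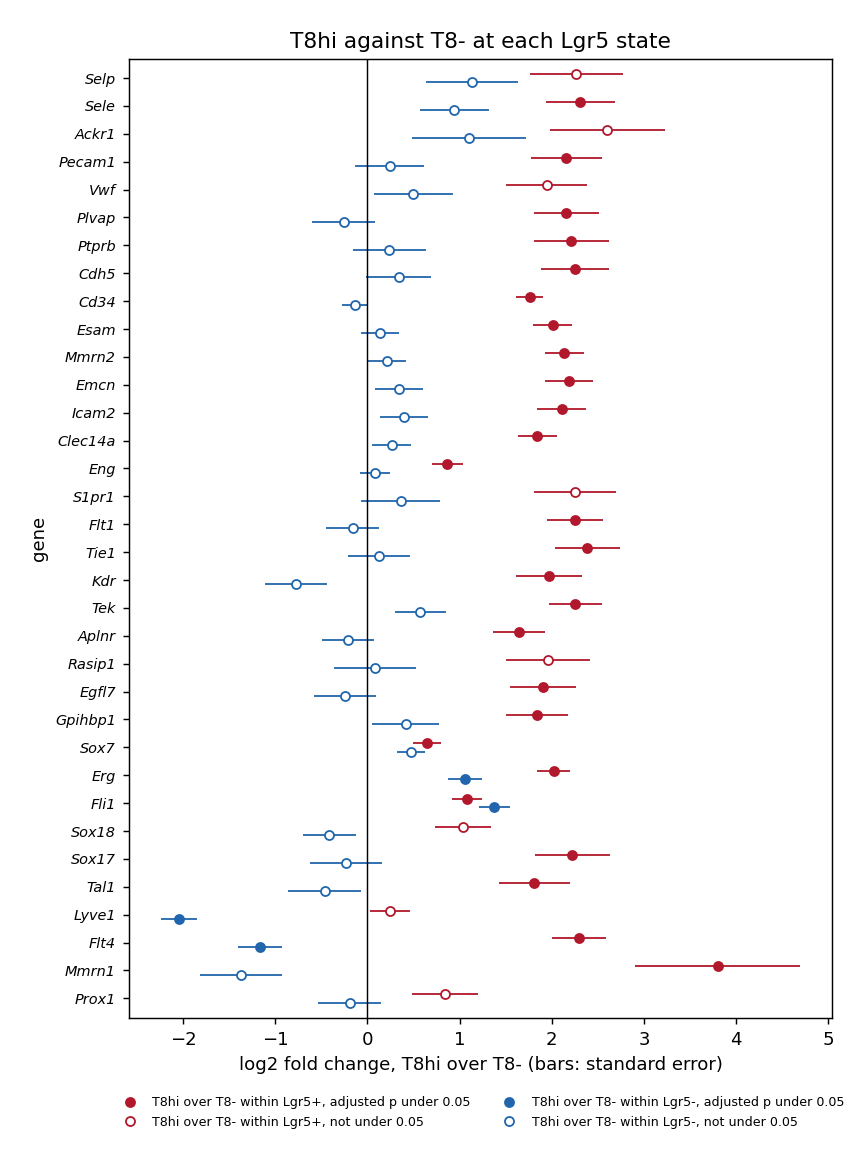
Log2 fold change of T8hi over T8- for each of the 34 genes, within Lgr5+ cells (red) and within Lgr5- cells (blue), with standard errors; filled points have an edgeR adjusted p under 0.05. All red points lie right of 0 and 26 are filled, while the blue points scatter around 0 with only Erg, Fli1, Lyve1 and Flt4 filled.

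Selp and Sele were highest in Lgr5+T8hi, with the T8- populations at similar low means. Selp (chr1:164115264-164150026) measured 404 and 245 CPM in the Lgr5+T8hi libraries, 93.4 and 174 CPM in Lgr5-T8hi, 88.1 and 47.1 CPM in Lgr5+T8- and 69.6 and 56.6 CPM in Lgr5-T8-. All 4 T8hi libraries lay above all 4 T8- libraries, as for Ackr1, Erg and Fli1 and for 4.08% of all genes tested. Per kilobase of gene length Selp had the highest level of the 34 genes, 42.8 CPM per kb, ahead of Plvap at 28.5 and Ackr1 at 22.7. Sele (chr1:164039614-164058487) measured 70.9 and 69.3 CPM in the Lgr5+T8hi libraries, 16.7 and 41.0 CPM in Lgr5-T8hi, 14.5 and 13.9 CPM in Lgr5+T8- and 11.8 and 17.4 CPM in Lgr5-T8-. The Lgr5+T8hi libraries agree closely and exceed the rest, and Lgr5-T8hi batch 1 sits with the T8- libraries. Ackr1, a chemokine-binding receptor of venules, measured 73.3 and 46.8 CPM in the Lgr5+T8hi libraries, 12.8 and 35.2 CPM in Lgr5-T8hi, 11.8 and 7.85 CPM in Lgr5+T8- and 9.91 and 12.2 CPM in Lgr5-T8-.

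Sele rose in T8hi cells, with a log2 fold change of 1.62 ± 0.26 averaged over both Lgr5 states (adjusted p = 0.0188) and 2.31 ± 0.37 within Lgr5+ (adjusted p = 0.0262). The first call was lost without either Lgr5-T8- library (highest adjusted p 0.206). The second was lost without Lgr5+T8hi batch 1, Lgr5+T8- batch 2 or either Lgr5-T8- library (highest adjusted p 0.173). Selp had values of the same size that did not pass, 1.70 ± 0.35 over both states (adjusted p = 0.0528) and 2.27 ± 0.51 within Lgr5+ (adjusted p = 0.0852). Without Lgr5-T8hi batch 1 or batch 2 the Selp value within Lgr5+ was 2.31 or 2.28, close to the 2.27 of all libraries. Each of these fits keeps 1 library of Lgr5-T8hi. The contrast sets Lgr5+T8hi against Lgr5+T8-, each with a library in both batches. The Lgr5-T8hi libraries therefore hardly enter the value, and its closeness is not a test of stability. Ackr1 within Lgr5+ was 2.60 ± 0.63 and did not pass (adjusted p = 0.105). Within Lgr5- cells Sele, Selp and Ackr1 had 0.94 ± 0.37, 1.13 ± 0.50 and 1.10 ± 0.62 (adjusted p = 0.276, 0.347 and 0.462). Without Lgr5-T8hi batch 1 Sele, Selp and Ackr1 had 1.46, 1.81 and 1.85, in a fit that kept only the higher Lgr5-T8hi library. In batch 1, Lgr5-T8hi against Lgr5-T8- measured 16.7 against 11.8 CPM for Sele, 93.4 against 69.6 for Selp and 12.8 against 9.91 for Ackr1. Lgr5+ over Lgr5- within T8- was 0.00 ± 0.39 for Sele and 0.08 ± 0.50 for Selp.

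**Figure D3:**
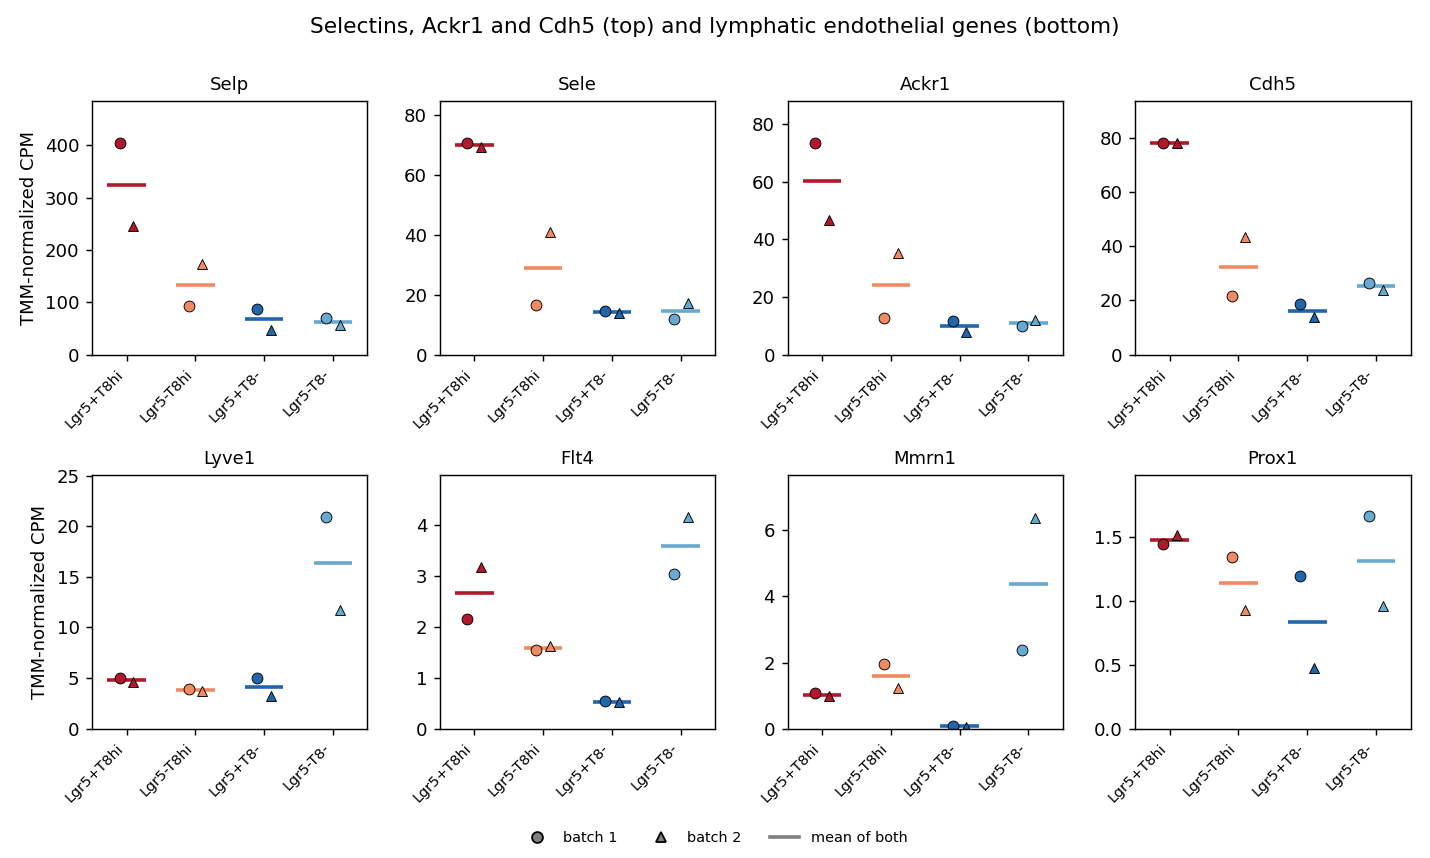
TMM-normalized CPM of Selp, Sele, Ackr1 and Cdh5 (top) and of the lymphatic genes Lyve1, Flt4, Mmrn1 and Prox1 (bottom) in each library, with circles for batch 1, triangles for batch 2 and a line at the mean of both. Each top panel is highest in Lgr5+T8hi, and Lyve1, Flt4 and Mmrn1 are highest in Lgr5-T8-.

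Of 11 genes for the partners of selectins and for leukocyte adhesion, 4 were higher and none lower in T8hi over T8- (median 0.47). Of all genes tested, 9.13% were higher and 5.52% lower. Vcam1, an adhesion molecule for integrin-bearing leukocytes that basal cells also express, had 142 and 170 CPM in the Lgr5+T8hi libraries, 111 and 149 CPM in Lgr5-T8hi, 79.4 and 131 CPM in Lgr5+T8- and 46.9 and 86.1 CPM in Lgr5-T8- (log2 fold change 0.81 ± 0.10, adjusted p = 0.000325). Selplg, which encodes the P-selectin ligand of leukocytes, had 2.05 and 2.42 CPM in the Lgr5+T8hi libraries, 0.77 and 0.45 CPM in Lgr5-T8hi, 0.35 and 0.56 CPM in Lgr5+T8- and 0.88 and 0.55 CPM in Lgr5-T8- (1.04 ± 0.29, adjusted p = 0.032). The integrin genes Itga4 and Itgal rose by 1.60 ± 0.27 and 1.00 ± 0.25.

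Junctional and surface genes made the largest group, and 10 of its 11 members rose in T8hi within Lgr5+, with a median of 2.13. Of all genes tested, 7.27% were called higher in that contrast. Pecam1 had 124 and 138 CPM in the Lgr5+T8hi libraries, 31.8 and 73.4 CPM in Lgr5-T8hi, 32.3 and 25.2 CPM in Lgr5+T8- and 38.4 and 47.7 CPM in Lgr5-T8-. Cdh5 had 78.1 and 78.1 CPM in the Lgr5+T8hi libraries, 21.5 and 43.2 CPM in Lgr5-T8hi, 18.7 and 13.8 CPM in Lgr5+T8- and 26.6 and 23.8 CPM in Lgr5-T8-. In both genes the Lgr5+T8hi libraries stood clear of the other 6, and Lgr5-T8hi batch 2 came next. Plvap, which forms the diaphragms of fenestrae and caveolae, had 104 and 114 CPM in the Lgr5+T8hi libraries, 28.2 and 61.4 CPM in Lgr5-T8hi, 26.9 and 21.0 CPM in Lgr5+T8- and 44.9 and 59.3 CPM in Lgr5-T8-. Ptprb, the phosphatase VE-PTP that acts on Tie2 and VE-cadherin, had 84.8 and 108 CPM in the Lgr5+T8hi libraries, 24.4 and 54.5 CPM in Lgr5-T8hi, 23.8 and 16.4 CPM in Lgr5+T8- and 29.9 and 35.0 CPM in Lgr5-T8-. Their log2 fold changes within Lgr5+ were 2.15 ± 0.38 for Pecam1, 2.25 ± 0.37 for Cdh5, 2.16 ± 0.36 for Plvap and 2.21 ± 0.41 for Ptprb (adjusted p = 0.0395, 0.0264, 0.0276 and 0.0453). Each of these calls was lost without either Lgr5+T8hi library and without either Lgr5-T8- library, and those of Pecam1 and Cdh5 also without Lgr5+T8- batch 2 (highest adjusted p 0.198, 0.165, 0.181 and 0.227 in the same order). Vwf had 112 and 140 CPM in the Lgr5+T8hi libraries, 33.5 and 73.1 CPM in Lgr5-T8hi, 38.9 and 24.6 CPM in Lgr5+T8- and 34.2 and 39.4 CPM in Lgr5-T8-, and was the member that did not pass (1.94 ± 0.44, adjusted p = 0.0805).

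The other junctional and surface genes had narrower errors, and 6 of them were called in the interaction. Cd34, a sialomucin of vessels, progenitors and some stromal cells, had 48.5 and 55.5 CPM in the Lgr5+T8hi libraries, 22.5 and 32.9 CPM in Lgr5-T8hi, 16.1 and 14.3 CPM in Lgr5+T8- and 26.9 and 33.6 CPM in Lgr5-T8-. Lgr5+T8- was low in both batches and Lgr5-T8hi overlapped Lgr5-T8-. Cd34 rose in T8hi within Lgr5+ by 1.76 ± 0.15 (adjusted p = 5.4e-05), had -0.13 ± 0.14 within Lgr5- (adjusted p = 0.684), and gave an interaction of 1.89 ± 0.20 (adjusted p = 0.00164). Cd34 was the only member called in both contrasts of Lgr5+ over Lgr5-, in opposite directions, 0.92 ± 0.14 within T8hi and -0.97 ± 0.15 within T8-. The call within T8hi was lost without either Lgr5+T8hi library or Lgr5-T8hi batch 1 (highest adjusted p 0.146), and the one within T8- held in every omission. Esam, an immunoglobulin-family junction protein, had 46.5 and 45.4 CPM in the Lgr5+T8hi libraries, 16.8 and 26.4 CPM in Lgr5-T8hi, 12.9 and 9.73 CPM in Lgr5+T8- and 18.7 and 20.4 CPM in Lgr5-T8-. Mmrn2, a matrix glycoprotein, had 38.6 and 53.9 CPM in the Lgr5+T8hi libraries, 11.2 and 25.2 CPM in Lgr5-T8hi, 9.73 and 10.96 CPM in Lgr5+T8- and 13.01 and 17.1 CPM in Lgr5-T8-. Emcn (endomucin) had 26.1 and 24.4 CPM in the Lgr5+T8hi libraries, 6.48 and 10.8 CPM in Lgr5-T8hi, 6.58 and 4.39 CPM in Lgr5+T8- and 6.58 and 7.02 CPM in Lgr5-T8-. In these 3 genes only Lgr5+T8hi stood apart by a wide margin.

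Icam2, an adhesion ligand present on resting endothelium, and Clec14a, a lectin-like receptor that binds Mmrn2, repeated this at lower levels. Icam2 had 7.58 and 8.62 CPM in the Lgr5+T8hi libraries, 2.42 and 4.87 CPM in Lgr5-T8hi, 2.02 and 1.67 CPM in Lgr5+T8- and 2.46 and 2.98 CPM in Lgr5-T8-. Clec14a had 6.23 and 8.78 CPM in the Lgr5+T8hi libraries, 2.72 and 4.24 CPM in Lgr5-T8hi, 2.05 and 2.03 CPM in Lgr5+T8- and 2.43 and 3.35 CPM in Lgr5-T8-. Within Lgr5+, the T8hi over T8- values of Esam, Mmrn2, Emcn, Icam2 and Clec14a were 1.84 to 2.19, and these calls, with that of Cd34, held when each library was left out in turn. Their interaction values were 1.58 to 1.92. The interaction call of Cd34 held without any single library, while those of the other 5 were each lost without either Lgr5+T8hi library, those of Esam and Mmrn2 also without either Lgr5-T8- library, that of Clec14a also without Lgr5-T8hi batch 1 or Lgr5+T8- batch 2, that of Emcn also without Lgr5+T8- batch 2 or either Lgr5-T8- library, and that of Icam2 in 6 of 8 omissions (highest adjusted p 0.246, 0.191, 0.115, 0.293 and 0.209 for Esam, Mmrn2, Clec14a, Emcn and Icam2).

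The group of growth factor and G protein-coupled receptors held Kdr, Flt1, Tek, Tie1, Eng, S1pr1 and Aplnr. These followed the common pattern, and 6 of 7 rose in T8hi within Lgr5+ (median 2.25), against 7.27% of all genes. Flt4, also a receptor for vascular endothelial growth factors, is counted with the lymphatic genes and departed from the pattern. Flt1 (VEGFR1) had 32.5 and 34.3 CPM in the Lgr5+T8hi libraries, 10.99 and 19.0 CPM in Lgr5-T8hi, 8.38 and 5.46 CPM in Lgr5+T8- and 17.7 and 15.6 CPM in Lgr5-T8-. Its values in Lgr5-T8- were at least as high as the lower Lgr5-T8hi library, and Lgr5+T8- was lowest. Flt1 rose by 2.25 ± 0.30 within Lgr5+ (adjusted p = 0.00606) and had -0.16 ± 0.29 within Lgr5- (adjusted p = 0.832), with an interaction of 2.41 ± 0.42 (adjusted p = 0.0419). The first call was lost without Lgr5+T8hi batch 2 or either Lgr5-T8- library (highest adjusted p 0.0796), and the interaction call without either library of Lgr5+T8hi or of Lgr5-T8- (highest adjusted p 0.348). Kdr (VEGFR2) had 1.97 ± 0.36 within Lgr5+ and an interaction of 2.74 ± 0.49 that did not pass (adjusted p = 0.0514), and was lower in Lgr5+ than in Lgr5- cells within T8- (-1.60 ± 0.36, adjusted p = 0.0483). The Kdr call within Lgr5+ was lost without either library of Lgr5+T8hi or of Lgr5-T8-, and the one within T8- in 5 of 8 omissions (highest adjusted p 0.151 and 0.427).

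Tek and Tie1 rose within Lgr5+ by 2.25 ± 0.29 and 2.38 ± 0.35 (adjusted p = 0.00299 and 0.0119). The Tek call held in every omission, while that of Tie1 was lost without either library of Lgr5+T8hi or of Lgr5-T8- (highest adjusted p 0.142). Aplnr, the apelin receptor, rose by 1.65 ± 0.28 (adjusted p = 0.00275), a call lost without Lgr5+T8- batch 2 (adjusted p 0.0839), and had an interaction of 1.86 ± 0.40 (adjusted p = 0.0334), lost in 5 of 8 omissions (highest adjusted p 0.181). S1pr1, the sphingosine-1-phosphate receptor, had 53.1 and 54.2 CPM in the Lgr5+T8hi libraries, 15.2 and 31.9 CPM in Lgr5-T8hi, 13.9 and 8.29 CPM in Lgr5+T8- and 19.1 and 17.1 CPM in Lgr5-T8-. Its value of 2.25 ± 0.44 missed the threshold (adjusted p = 0.0523). Eng (endoglin), a co-receptor for TGF-beta family ligands, had 93.6 and 98.8 CPM in the Lgr5+T8hi libraries, 58.2 and 73.6 CPM in Lgr5-T8hi, 58.0 and 47.9 CPM in Lgr5+T8- and 71.7 and 53.4 CPM in Lgr5-T8-. This was a shallow form of the pattern, with the highest population mean only 1.82-fold above the lowest. Eng rose by 0.86 ± 0.17 within Lgr5+ (adjusted p = 0.0147), a call lost without either Lgr5+T8hi library or Lgr5+T8- batch 2 (highest adjusted p 0.162).

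Of 14 genes for the ligands, co-receptors and partners of these pathways, 13 were tested. In T8hi over T8- averaged over Lgr5 states 6 were higher and 1 lower, against 9.13% and 5.52% of all genes tested. Vegfa, the main ligand of Kdr, had 936 and 622 CPM in the Lgr5+T8hi libraries, 866 and 646 CPM in Lgr5-T8hi, 945 and 790 CPM in Lgr5+T8- and 899 and 430 CPM in Lgr5-T8- and was not called (0.03 ± 0.12, adjusted p = 0.903). The neuropilin Nrp1, a co-receptor for Vegfa that other cell types also express, had 26.5 and 34.01 CPM in the Lgr5+T8hi libraries, 13.5 and 17.7 CPM in Lgr5-T8hi, 5.92 and 6.86 CPM in Lgr5+T8- and 14.7 and 16.6 CPM in Lgr5-T8-. Nrp1 rose within Lgr5+ by 2.24 ± 0.12 (adjusted p = 2.08e-06), had -0.02 ± 0.11 within Lgr5-, and gave an interaction of 2.25 ± 0.16 (adjusted p = 9.49e-05). Nrp2 and Angpt2, the angiopoietin made by endothelial cells, had interactions of 1.63 ± 0.19 and 2.04 ± 0.33 (adjusted p = 0.00183 and 0.00766). Angpt1, the Tek ligand made by perivascular and stromal cells, rose in both Lgr5 states, by 1.37 ± 0.24 within Lgr5+ and 1.10 ± 0.22 within Lgr5-.

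Of the secreted and signalling genes, Egfl7, a secreted vessel factor, rose within Lgr5+ by 1.90 ± 0.36 (adjusted p = 0.0229). Gpihbp1, which carries lipoprotein lipase to the capillary lumen, rose by 1.84 ± 0.34 (adjusted p = 0.00603). Rasip1, needed for vessel lumens to form, had 1.96 ± 0.45 and did not pass (adjusted p = 0.0733). The Egfl7 call was lost without either library of Lgr5+T8hi or of Lgr5-T8- (highest adjusted p 0.154), and that of Gpihbp1 without either Lgr5+T8hi library or Lgr5+T8- batch 2 (highest adjusted p 0.0915). Lpl, listed with adipocyte genes and the cargo of Gpihbp1, had 18.2 and 19.4 CPM in the Lgr5+T8hi libraries, 13.5 and 11.9 CPM in Lgr5-T8hi, 4.72 and 4.98 CPM in Lgr5+T8- and 6.15 and 7.35 CPM in Lgr5-T8-.

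The transcription factors did not all share the pattern, although 5 of 6 rose in T8hi within Lgr5+ (median 1.45), against 7.27% of all genes. Erg had means of 13.5 ± 1.97 CPM in Lgr5+T8hi libraries, 7.15 ± 0.59 CPM in Lgr5-T8hi, 3.31 ± 0.67 CPM in Lgr5+T8- and 3.45 ± 0.52 CPM in Lgr5-T8-. Its level was graded, with Lgr5-T8hi between Lgr5+T8hi and both T8- populations. Erg rose in T8hi within Lgr5+ by 2.02 ± 0.18 (adjusted p = 3.86e-05) and within Lgr5- by 1.06 ± 0.18 (adjusted p = 0.00333), the call within Lgr5- being lost without Lgr5-T8hi batch 2 (adjusted p 0.0713). Fli1 had 8.63 ± 1.18 CPM in Lgr5+T8hi libraries, 8.48 ± 1.41 CPM in Lgr5-T8hi, 4.07 ± 0.79 CPM in Lgr5+T8- and 3.25 ± 0.08 CPM in Lgr5-T8-. Fli1 thus split by Tspan8 alone in these means, rising by 1.08 ± 0.16 within Lgr5+ and 1.38 ± 0.17 within Lgr5- (adjusted p = 0.00119 and 0.000321), with Lgr5+ over Lgr5- at 0.03 ± 0.15 within T8hi and an interaction of -0.29 ± 0.23 (adjusted p = 0.73). Both Fli1 calls held when each library was left out. Fli1 is also a blood cell factor.

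Sox7 had 28.4 ± 2.21 CPM in Lgr5+T8hi libraries, 20.1 ± 1.34 CPM in Lgr5-T8hi, 18.1 ± 3.54 CPM in Lgr5+T8- and 14.5 ± 2.54 CPM in Lgr5-T8-. Its range was shallow, and it was the only member called higher in Lgr5+ over Lgr5- averaged over Tspan8 states (0.41 ± 0.11, adjusted p = 0.0358), a call lost in 5 of 8 omissions (highest adjusted p 0.21). Sox17 followed the common pattern with 2.22 ± 0.41 within Lgr5+ (adjusted p = 0.0108, lost without Lgr5+T8hi batch 1, Lgr5+T8- batch 2 or Lgr5-T8- batch 1, highest adjusted p 0.112). Sox18 had 1.04 ± 0.30 and did not pass (adjusted p = 0.0603). Tal1, a factor of blood and endothelial progenitors, rose by 1.81 ± 0.39 within Lgr5+ (adjusted p = 0.0134), a call lost without either Lgr5+T8hi library or Lgr5+T8- batch 2 (highest adjusted p 0.162).

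Among the lymphatic genes, Lyve1, Flt4 and Mmrn1 departed from the common pattern in their highest population, and Prox1 did not. Flt4 and Mmrn1 were still lowest in Lgr5+T8-, as most of the endothelial genes were. Lyve1, a hyaluronan receptor of lymphatic endothelium and of some macrophages, had 4.99 and 4.65 CPM in the Lgr5+T8hi libraries, 3.96 and 3.73 CPM in Lgr5-T8hi, 5.04 and 3.19 CPM in Lgr5+T8- and 20.9 and 11.7 CPM in Lgr5-T8-. Both Lgr5-T8- libraries stood above the other 6, which lay close together. Lyve1 fell in Lgr5-T8hi relative to Lgr5-T8- (-2.04 ± 0.20, adjusted p = 9.42e-05) and in Lgr5+T8- relative to Lgr5-T8- (-1.97 ± 0.20, adjusted p = 0.000105). Within Lgr5+ its T8hi over T8- value was 0.24 ± 0.21 (adjusted p = 0.587), and the interaction was 2.29 ± 0.29 (adjusted p = 0.00239). Flt4 (VEGFR3) had 2.16 and 3.18 CPM in the Lgr5+T8hi libraries, 1.54 and 1.62 CPM in Lgr5-T8hi, 0.54 and 0.52 CPM in Lgr5+T8- and 3.03 and 4.15 CPM in Lgr5-T8-. Its Lgr5+T8hi and Lgr5-T8- libraries overlapped, and Lgr5+T8- was lowest by a wide margin. Flt4 rose in T8hi within Lgr5+ by 2.30 ± 0.30 (adjusted p = 0.000418), fell within Lgr5- (-1.17 ± 0.24, adjusted p = 0.0101), and gave an interaction of 3.47 ± 0.38 (adjusted p = 0.00121). The call within Lgr5- was lost without either Lgr5-T8hi library (highest adjusted p 0.179), and the other Lyve1 and Flt4 calls in this paragraph held in every omission.

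Mmrn1, a multimerin of platelets and endothelium that is enriched in lymphatic cells, had 37 and 26 reads in the Lgr5+T8hi libraries, 71 and 46 reads in Lgr5-T8hi, 3 and 1 reads in Lgr5+T8- and 78 and 173 reads in Lgr5-T8-. It was nearly missing from Lgr5+T8- alone. Relative to Lgr5+T8-, the summed level was 14.6-fold in Lgr5+T8hi (95% exact interval 5.44 to 55.4), 22.5-fold in Lgr5-T8hi (8.55 to 83.9) and 59.2-fold in Lgr5-T8- (22.9 to 219), intervals that cover counting error only. The fitted log2 fold change of Lgr5+T8- over Lgr5-T8- was -5.81 ± 0.75 (adjusted p = 0.00193), and that call held in every omission. The fitted T8hi over T8- value within Lgr5+ was 3.80 ± 0.90 (adjusted p = 0.0322) and the interaction 5.18 ± 0.99 (adjusted p = 0.0348), both lost without any 1 library of Lgr5+T8hi or Lgr5+T8- (highest adjusted p 0.217 and 0.178). Its T8hi over T8- value within Lgr5- was -1.38 ± 0.45 and did not pass (adjusted p = 0.124), but it was called without Lgr5-T8hi batch 1 (-2.06, adjusted p 0.0352) or Lgr5-T8- batch 1 (-2.24, adjusted p 0.000697). Prox1, the factor that sets lymphatic identity, was low throughout, at 1.44 and 1.51 CPM in the Lgr5+T8hi libraries, 1.35 and 0.93 CPM in Lgr5-T8hi, 1.20 and 0.48 CPM in Lgr5+T8- and 1.67 and 0.96 CPM in Lgr5-T8-. Its populations overlapped, and it was called in none of the 8 comparisons.

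For Lgr5+ over Lgr5- averaged over Tspan8 states, 4 of the 34 genes were called, Sox7 higher and Lyve1, Flt4 and Mmrn1 lower, against 9.09% of all genes (4.23% higher, 4.86% lower). Lyve1 had -0.83 ± 0.15, Flt4 -0.999 ± 0.19 and Mmrn1 -3.22 ± 0.47 (adjusted p = 0.0039, 0.00624 and 0.00369), and the Lyve1 and Flt4 calls were lost without Lgr5+T8hi batch 1 (adjusted p 0.0554 and 0.0515). The count was 17 without Lgr5-T8hi batch 2, 9 without Lgr5+T8- batch 2, and 1 without Lgr5+T8hi batch 1 or with no batch term. Within T8hi, Lgr5+ over Lgr5- called 10 genes higher and none lower, against 3.34% of all genes (2.29% higher, 1.05% lower), with a median of 1.19. These were Cd34, Clec14a, Mmrn2, Erg, Aplnr, Emcn, Icam2, Gpihbp1, Esam and Tal1, with log2 fold changes of 0.90 to 1.65. None of the 34 was called without either Lgr5+T8hi library or with no batch term, 2 without Lgr5-T8hi batch 1, 24 without Lgr5-T8hi batch 2, and 19 and 20 without Lgr5+T8- batch 1 and batch 2. With no batch term 28 had an unadjusted p under 0.05 in edgeR. Within T8-, the contrast called 5 genes lower (Lyve1, Flt4, Mmrn1, Cd34 and Kdr) and none higher, against 8.86% of all genes (3.81% higher, 5.05% lower), with a median of -0.63. That count was 14 and 16 without Lgr5-T8hi batch 1 and batch 2, and 9 without Lgr5+T8- batch 1. T8hi over T8- averaged over Lgr5 states called 17 higher and Lyve1 lower, against 14.6% of all genes (9.13% higher, 5.52% lower), with a median of 1.10 (-0.02 over all genes). It was 28 without Lgr5-T8hi batch 1 or Lgr5+T8- batch 1, 11 without Lgr5-T8- batch 1, and 12 without Lgr5+T8hi batch 1 or Lgr5-T8- batch 2.

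A second list of 28 endothelial genes resembled the 34 in its calls within Lgr5+ but not in its summed level. It summed to 847 and 849 CPM in the Lgr5+T8hi libraries, 674 and 745 CPM in Lgr5-T8hi, 585 and 615 CPM in Lgr5+T8- and 1022 and 933 CPM in Lgr5-T8-, so the sum was highest in Lgr5-T8-. Reln, a secreted matrix protein made by lymphatic and several other cell types, made up 362 and 346 CPM of the Lgr5-T8- sums. It was lower in T8hi over T8- (-1.09 ± 0.17, adjusted p = 0.00749) and in Lgr5+ over Lgr5- (-1.46 ± 0.17, adjusted p = 0.00393). The order of the sums therefore leans heavily on Reln and does not describe the list as a whole. In T8hi over T8- 17 were higher and 2 lower, within Lgr5+ 21 were higher and none lower, and within Lgr5- none were higher and 4 lower. The shares of all genes tested, higher and lower, were 9.13% and 5.52%, 7.27% and 2.17%, and 3.70% and 3.36% in the same order. The interaction was called for 13 of the 28, all positive, against 2.18% of all genes in that direction. Ramp2 and Calcrl, which together form the adrenomedullin receptor, had interactions of 1.87 ± 0.26 and 1.52 ± 0.28 (adjusted p = 0.00355 and 0.0216). Ramp2 had 10.5 and 12.7 CPM in the Lgr5+T8hi libraries, 4.04 and 6.77 CPM in Lgr5-T8hi, 2.61 and 2.91 CPM in Lgr5+T8- and 3.94 and 5.40 CPM in Lgr5-T8-. Bmx, a kinase of arterial endothelium, and She, an adaptor gene, had interactions of 2.05 ± 0.47 and 2.45 ± 0.41 (adjusted p = 0.0416 and 0.0109). Stab2, a scavenger receptor of sinusoidal and lymphatic endothelium singled out after its values were seen, had 0.98 and 1.10 CPM in the Lgr5+T8hi libraries, 0.55 and 0.93 CPM in Lgr5-T8hi, 0.82 and 0.68 CPM in Lgr5+T8- and 4.76 and 2.65 CPM in Lgr5-T8-. As for Lyve1, both Lgr5-T8- libraries were highest, and the T8hi over T8- value of Stab2 within Lgr5- was -2.29 ± 0.35 (adjusted p = 0.00167).

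Markers of other stromal and blood cells moved with the endothelial genes in part. Of all genes tested, 9.13% were called higher and 5.52% lower in T8hi over T8-, and 2.55% were called in the interaction. The 16 leukocyte genes summed to 102 and 163 CPM in the Lgr5+T8hi libraries, 67.8 and 88.6 CPM in Lgr5-T8hi, 49.8 and 81.1 CPM in Lgr5+T8- and 56.4 and 101 CPM in Lgr5-T8-; 8 were higher and none lower in T8hi over T8-, and 7 were called in the interaction. Ptprc, the pan-leukocyte CD45, had 5.91 and 8.51 CPM in the Lgr5+T8hi libraries, 2.42 and 2.02 CPM in Lgr5-T8hi, 1.04 and 1.12 CPM in Lgr5+T8- and 1.36 and 1.58 CPM in Lgr5-T8-. The 10 pericyte genes summed to 168 and 185 CPM in the Lgr5+T8hi libraries, 168 and 141 CPM in Lgr5-T8hi, 70.4 and 77.3 CPM in Lgr5+T8- and 139 and 122 CPM in Lgr5-T8-, and 8 of the 10 rose in T8hi over T8-. The 10 fibroblast genes summed to 1036 and 1276 CPM in the Lgr5+T8hi libraries, 880 and 740 CPM in Lgr5-T8hi, 363 and 414 CPM in Lgr5+T8- and 576 and 749 CPM in Lgr5-T8-, and 8 of the 10 rose. The 7 adipocyte genes summed to 333 and 235 CPM in the Lgr5+T8hi libraries, 102 and 129 CPM in Lgr5-T8hi, 75.4 and 48.4 CPM in Lgr5+T8- and 76.8 and 71.0 CPM in Lgr5-T8-, most of it Fabp4, which capillary endothelium also makes. Of the 5 adipocyte genes tested, 3 were higher in T8hi over T8- and Lep was lower (-1.69 ± 0.20, adjusted p = 0.000165). The 10 luminal epithelial genes summed to 710 to 1629 CPM, and 7 rose in T8hi over T8-, while 6 of 10 basal markers fell. The interaction was also called, in the positive direction, for 4 of 10 pericyte, 3 of 10 fibroblast and 1 of 5 tested adipocyte genes. No luminal epithelial or basal marker was called in it. In Lgr5-T8hi, where the endothelial sum was higher in batch 2, the leukocyte and adipocyte sums were also higher in batch 2, and the pericyte and fibroblast sums were lower. The leukocyte sum was higher in batch 2 in every population, however, and Ptprc was lower in batch 2 of Lgr5-T8hi. Gene by gene, the batch term was called for 2 of the 16 leukocyte genes, against 32.9% of all genes tested. These were Cd74 (1.20 ± 0.14) and Csf1r (0.65 ± 0.23), and the median over the list was 0.10. The part of these other cell types in the endothelial differences was not tested.

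Platelets also carry Selp, Vwf and Mmrn1, and their part in these levels was not tested. The 12 platelet genes summed to 63.4 and 69.2 CPM in the Lgr5+T8hi libraries, 82.8 and 87.7 CPM in Lgr5-T8hi, 84.0 and 85.2 CPM in Lgr5+T8- and 108 and 99.1 CPM in Lgr5-T8-. The lowest sums were in Lgr5+T8hi. Itgb3, an integrin subunit of many cell types, made up 18.5 to 67.9 CPM of them and Itga2b, its platelet partner, 16.6 to 35.9 CPM. Ppbp and Clec1b were under 0.1 CPM in every library, and Gp6 was at 0 in 7 of 8. Pf4, a platelet chemokine, had 0.49 and 0.64 CPM in the Lgr5+T8hi libraries, 0.14 and 0.37 CPM in Lgr5-T8hi, 0.22 and 0.28 CPM in Lgr5+T8- and 0.18 and 0.07 CPM in Lgr5-T8-, and its T8hi over T8- value was 1.02 ± 0.45 (adjusted p = 0.161). The erythroid list summed to 0.77 to 1.70 CPM per library.

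**Figure D4:**
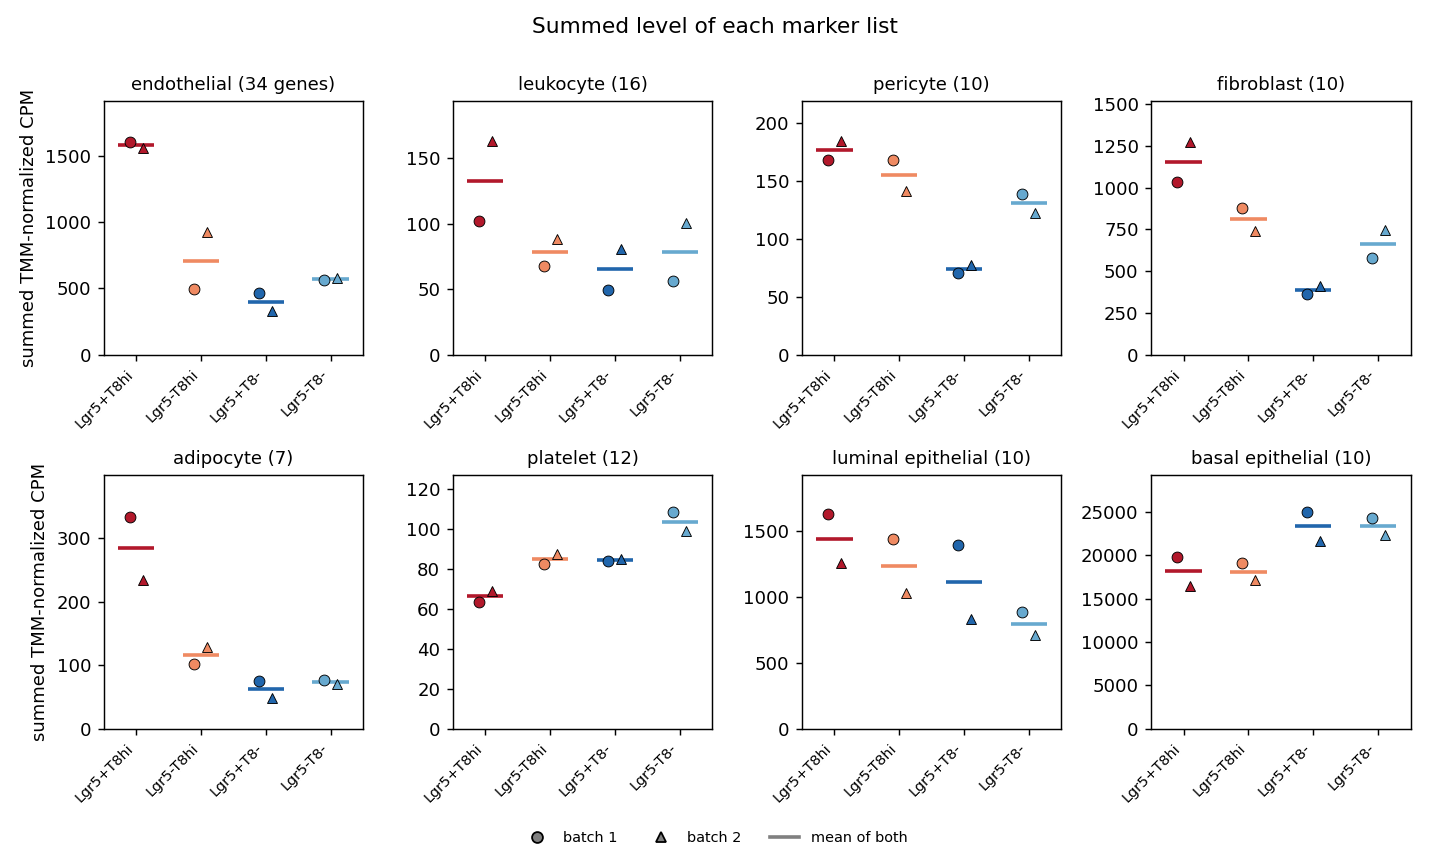
Summed TMM-normalized CPM of the 34 endothelial genes and of 7 other marker lists in each library, with circles for batch 1, triangles for batch 2, a line at the mean of both and each axis starting at 0. The endothelial and adipocyte sums stand apart in Lgr5+T8hi, the pericyte and fibroblast sums are lowest in Lgr5+T8-, and the platelet sum is lowest in Lgr5+T8hi.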

How the data were processed

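The authors' deposited tables hold raw read counts per gene and a gene length for 27164 Entrez genes in each of 8 libraries of single-end RNA-seq, and the counts had not been normalized. Per the submitters' processing notes, the genome build was mm10 (GRCm38) and the tools were featureCounts, CASAVA 1.8.2, limma 3.24.14 and edgeR 3.10.2, with no roles given; the aligner and the strand setting are not given in the sources used here, so overlapping genes are uncertain. Symbols came from RefSeq (25260 identifiers matched).

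Counts were tested with edgeR 4.0.16 (R 4.3.3; robust quasi-likelihood, TMM, filterByExpr with a minimum count of 10) on all 8 libraries with population and batch as terms, leaving 3 residual degrees of freedom. Of the genes, 16526 were tested and 10638 left out; all 34 endothelial genes passed. Adjusted p-values are two-sided Benjamini-Hochberg values over all genes tested in a comparison, called at 0.05, and errors of fold changes are standard errors. Gene lists and the 34 genes were chosen with earlier results of these data known. Given in full are both selectins, the 10 genes of highest mean CPM, genes departing from the common pattern with at least 0.5 CPM, and those called in the interaction; from other lists, the 4 smallest adjusted p in T8hi over T8-. The labels' batch pairs the libraries: deviations from population means correlated at 0.415 to 0.550 across genes over 6 pairs of populations. Replicates differed beyond sampling noise (chi-square per degree of freedom 36.9 to 58.4). The fit was checked on simulated counts. Alternatives were RLE scaling, other count filters, DESeq2 1.42.0, limma-voom 3.58.1, no batch term and leaving out each library.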

Additional observations from a re-analysis of the deposited data

Results flagged for a closer look

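For 11 of the 34 genes the T8hi over T8- difference within Lgr5+ cells differed from that within Lgr5- cells by the interaction test. Of all genes tested, 2.55% were called in it. The interaction, a difference of 2 log2 fold changes, was 5.18 for Mmrn1, 3.47 for Flt4, 2.41 for Flt1, 2.29 for Lyve1, 1.92 for Mmrn2, 1.89 for Cd34, 1.87 for Esam, 1.86 for Aplnr, 1.85 for Emcn, 1.71 for Icam2 and 1.58 for Clec14a. The lymphatic Flt4 and Lyve1 and the junctional Cd34 kept their calls when each library was left out in turn, and each of the other 8 lost its call without at least 1 library. Lgr5-T8hi, whose libraries had a median batch 2 over batch 1 ratio of 2.02 across the 34 genes, enters every one of these values. None of the 11 was called with no batch term.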

How the results depend on the processing

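Counts of called genes, out of 34, depended most on the batch term and on single libraries. With no replicate block (no batch term), edgeR called 0 in the interaction, 0 for Lgr5 within T8hi, 1 for Lgr5, 2 for Tspan8 within Lgr5- and 3 for Lgr5 within T8-, with no call moved by over 1.5 times for Tspan8 (19) or Tspan8 within Lgr5+ (24). Limma-voom with no replicate block, added after seeing these counts, gave 0, 0, 0, 2, 2, 18 and 22 in the same order. DESeq2 called 18 in the interaction and 7 for Lgr5. Leaving out each library in turn gave 11 to 28 for Tspan8, 1 to 17 for Lgr5, 3 to 29 for the interaction, 13 to 31 for Tspan8 within Lgr5+, 4 to 12 within Lgr5-, 0 to 24 for Lgr5 within T8hi, 4 to 16 within T8- and 1 to 9 for batch. The cause of these shifts was not tested. RLE scaling, limma-voom with the block, and 2 other count filters (none, or 1 CPM in 4 libraries) kept every count within 1.5 times. Among 1325 values of single genes under an alternative, none changed sign, 260 called ones lost their call and 62 uncalled ones gained it. The 1325 values cover only part of the combinations of gene, comparison and alternative. They do not give the balance of lost and gained calls over all 34 genes. The count of genes highest in Lgr5+T8hi was 31 under each scaling, and 29 and 31 within batch 1 and batch 2. Each population has 2 libraries, so the spread behind every error is that of few degrees of freedom.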
